A study of Homo sapiens with 15 samples.

Results

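The kinesin motor genes were examined in MHCC-97H cells, an established line from a human liver cancer, with transcript levels measured by RNA sequencing. Members were the rows of the gene count table whose symbol is KIF followed by a number and, in most, a letter A to C. Of 19143 rows, 37 met this rule. They were split by known role into 12 mitotic kinesins, 12 transport kinesins and 13 others. KIF23 and KIF5C were not analysed here.

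The study had 15 libraries in 5 groups of 3: the cells grown in an animal model, in a 3D model, in the 3D model with heat treatment, in the 3D model as the control of that treatment, and in a 2D model. All groups share the MHCC-97H line, and no genotype or drug treatment is given for any of them. The labels give neither the host animal nor the temperature, length or timing of the heat. The heated and control 3D libraries came from a later round of sequencing than the other 9. Replicates are labelled as biological, but nothing says that they came from separate cultures or animals, so the p-values below measure the spread between these libraries. The series addresses heat resistance of the cells under confinement in 3D, and the comparisons here ask how the kinesin transcripts differed between the models and with heat.

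Kinesins are motor proteins that hydrolyse ATP to move along microtubules or to change microtubule ends. Mitotic kinesins build the spindle, align chromosomes and carry the machinery of cytokinesis, and most of their genes are transcribed mainly late in the cell cycle. Transport kinesins carry vesicles, endosomes, mitochondria and ciliary cargo in cells at any stage. Their levels in a bulk library therefore mix the state of each cell with the make-up of the culture, and fewer cells of a type cannot be told apart from less RNA per cell.

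The promoters of the mitotic members held a pair of cell cycle motifs at other shares than those of the rest of the family. RefSeq promoters of GRCh38.p14, each running from 250 bases before to 50 bases after the gene start, were matched for 31 of the 37 members. Both strands were searched for TTTGAA, the cell cycle gene homology element, and for CCAAT, the binding site of NF-Y. Matches to the 2 motifs can share at most 1 base. TTTGAA was present in 8 of 12 mitotic promoters, in 1 of 10 transport promoters (KIF5B) and in 0 of 9 others, against 15.4% of 27305 promoters of the same length. CCAAT was present in 9 of 12 mitotic, 3 of 10 transport and 3 of 9 other promoters, against 35.7% of all promoters. Of the mitotic promoters 7 held both, against 6.08% of all. These counts include both KIF4A and its retrogene copy KIF4B, whose sequences around the motifs are nearly the same, so they are not separate cases. A match is a description of the sequence and not a measured binding site. Shown are 5 of the 7 mitotic promoters whose transcripts were called lower in 3D than in 2D, and that of KIF12, the member with the opposite direction. Of those left out, KIF4B held both motifs and KIF2C neither. KIF14, KIF18A and KIF20B are not among the 7 and also held both. Each reads 5′ to 3′ on the strand of its gene, with matches to either motif, on either strand, in capitals.
KIF11: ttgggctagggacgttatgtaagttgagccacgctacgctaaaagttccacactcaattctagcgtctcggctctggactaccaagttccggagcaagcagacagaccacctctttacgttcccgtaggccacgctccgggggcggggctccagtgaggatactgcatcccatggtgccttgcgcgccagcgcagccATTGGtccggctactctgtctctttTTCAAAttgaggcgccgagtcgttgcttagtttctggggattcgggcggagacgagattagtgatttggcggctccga
KIF4A: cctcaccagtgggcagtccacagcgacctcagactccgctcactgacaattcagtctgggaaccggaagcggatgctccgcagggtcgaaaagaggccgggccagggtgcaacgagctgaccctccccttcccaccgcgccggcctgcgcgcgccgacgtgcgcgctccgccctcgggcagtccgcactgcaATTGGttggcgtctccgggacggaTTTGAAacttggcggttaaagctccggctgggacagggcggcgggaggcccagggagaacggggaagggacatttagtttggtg
KIF15: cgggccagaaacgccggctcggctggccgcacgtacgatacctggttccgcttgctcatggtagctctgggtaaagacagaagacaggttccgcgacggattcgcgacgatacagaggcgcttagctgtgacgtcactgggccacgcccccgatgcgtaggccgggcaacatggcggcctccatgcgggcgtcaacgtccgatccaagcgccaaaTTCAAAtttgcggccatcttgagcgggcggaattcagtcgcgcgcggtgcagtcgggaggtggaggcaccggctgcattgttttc
KIF18B: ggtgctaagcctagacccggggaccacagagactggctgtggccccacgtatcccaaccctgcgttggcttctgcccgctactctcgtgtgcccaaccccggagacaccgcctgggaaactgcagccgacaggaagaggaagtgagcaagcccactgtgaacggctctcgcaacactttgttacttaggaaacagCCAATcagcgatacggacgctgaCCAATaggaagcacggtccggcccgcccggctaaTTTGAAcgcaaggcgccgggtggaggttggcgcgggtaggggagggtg
KIF20A: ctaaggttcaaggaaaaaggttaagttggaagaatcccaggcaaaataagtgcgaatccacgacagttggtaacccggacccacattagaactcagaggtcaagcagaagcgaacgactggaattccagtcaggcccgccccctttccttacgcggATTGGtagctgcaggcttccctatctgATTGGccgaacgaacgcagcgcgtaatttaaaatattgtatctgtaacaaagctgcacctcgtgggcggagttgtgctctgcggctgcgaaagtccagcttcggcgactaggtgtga
KIF12: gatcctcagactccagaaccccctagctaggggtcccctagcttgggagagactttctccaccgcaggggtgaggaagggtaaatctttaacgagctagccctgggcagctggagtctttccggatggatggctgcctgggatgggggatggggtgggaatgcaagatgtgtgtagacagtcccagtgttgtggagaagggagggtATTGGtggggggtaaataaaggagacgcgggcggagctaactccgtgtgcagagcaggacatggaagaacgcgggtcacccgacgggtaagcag
KIF11 (chr10:92592880-92593179, plus strand) has its TTTGAA match 28 bases and its CCAAT match 53 bases before the start. KIF4A (chrX:70289854-70290153, plus strand) holds them 34 and 58 bases before the start. KIF15 (chr3:44761544-44761843, plus strand) has the TTTGAA match alone, 35 bases before the start. In KIF18B (chr17:44947724-44948023, minus strand) the CCAAT matches lie 55 and 32 bases before the start and TTTGAA begins at base 3 of the gene. KIF20A (chr5:138178862-138179161, plus strand) has CCAAT matches 94 and 67 bases before the start and no TTTGAA. KIF12 (chr9:114099243-114099542, minus strand) has 1 CCAAT match, 44 bases before the start, and no TTTGAA. Bases just after the start occurred in a GENCODE transcript of the gene for KIF4A, KIF15, KIF20A and KIF12. For KIF11 and KIF18B they did not, so the distances given for this pair rest on the RefSeq start.

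Libraries held 12605539 to 18634295 counts, and all 11 markers of a liver carcinoma line had reads in every group. In replicates 1 and 2 of 3D and replicate 1 of heat, 3 libraries in all, the departure of genes from the 2D mean rose with the GC content of the transcript (Spearman's rho 0.59 to 0.80 over 13125 genes), against -0.18 to 0.23 in the other 12. Among 30 kinesins the same rho was 0.72 to 0.95 in these 3 libraries and -0.32 to 0.62 in the other 12. These libraries also had 1.31% to 4.57% of counts on mitochondrial genes, against 4.52% to 11.3% in the others. Among the others the highest share was that of 3D replicate 3. TMM scaling factors were 0.67 to 0.73 in these 3 libraries and 0.98 to 1.28 in the other 12. Counts and called members that rest on these 3 libraries, or medians in their place, are therefore also given without them. Such values come from 3D replicate 3 alone or from the fit without heat replicate 1. Values with an offset for GC content and transcript length are given where they end a call or move a called value by over 1.5 times. They are also given for members that were called with the offset, but not with all libraries and no offset, in comparisons of the first round. The part of the 3 libraries in each result was not tested beyond those values.

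**Figure D1:**
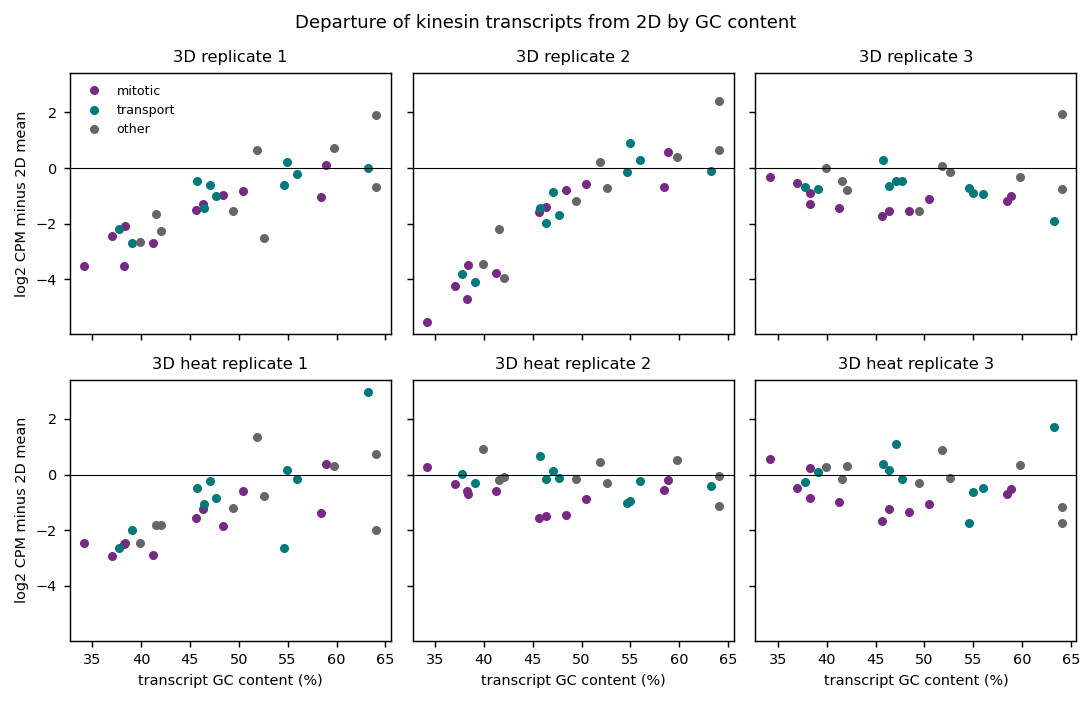
Departure of each tested kinesin from its 2D mean (y axis, log2 CPM) against the GC content of its transcript (x axis, percent) in the 3 libraries of the 3D model and the 3 heat-treated libraries, coloured by role. In 3D replicates 1 and 2 and heat replicate 1 the points climb with GC content (rho 0.72 to 0.95 over 30 members), and in the other 12 libraries of the series rho was -0.32 to 0.62.

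Levels are in CPM, the counts of a gene scaled to a common library size, computed from the deposited counts with TMM scaling over all 15 libraries. Of the 37 members, 27 reached a mean of 10 CPM in at least 1 group. KIF2B, KIF6, KIF19, KIF25, KIF26A, KIF1A and KIF5A were too low to be tested in any comparison, which left 30 members tested in the first round and 29 in the second, where KIF26B also fell below the filter. Per kilobase of transcript, the highest kinesins in 2D cells were KIF1C at 43.7 ± 1.42 and KIF4A at 42.0 ± 1.11 CPM per kb (SD, n = 3), which differed by less than their summed SDs. KIF5B followed at 26.8 ± 0.37 and KIF22 at 25.8 ± 1.05 CPM per kb, again within their summed SDs of each other. KIF2C at 20.7 ± 1.16 and KIF20A at 20.2 ± 0.26 CPM per kb came next, likewise not separated. KIF1C, a carrier of vesicles and integrins, alone made up 19.7% to 20.3% of all kinesin CPM in 2D cells.

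The mitotic members took 34.3% to 41.0% of summed kinesin CPM in the animal model, 23.1% to 27.0% in 3D, 25.2% to 27.8% in heat-treated 3D, 34.6% to 35.1% in 3D controls and 35.1% to 35.7% in 2D. Every 3D and heat-treated library thus lay below every library of the remaining groups. The share in 3D replicate 3, 27.0%, and in heat replicates 2 and 3, 27.8% and 25.2%, shows the same order without the 3 libraries that stood apart. Summed over the family, kinesin levels were 1167 to 1286 CPM in the animal model, 962 to 1283 CPM in 3D and 1694 to 1747 CPM in 2D. In the later round they were 1072 to 1382 CPM with heat and 1403 to 1491 CPM in the controls. No test was made of these sums.

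**Figure D2:**
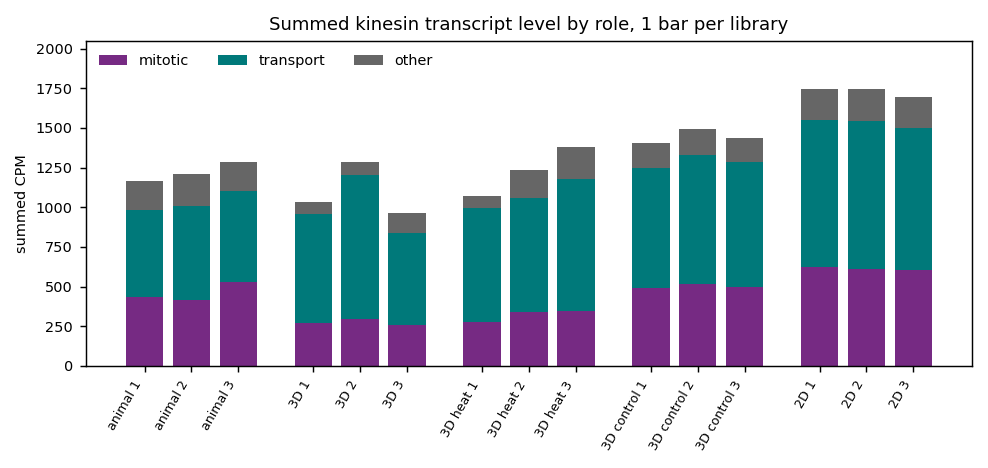
Summed CPM of the mitotic, transport and other kinesins (y axis, stacked, linear from 0), 1 bar per library, with groups from left to right animal, 3D, 3D heat, 3D control and 2D. The mitotic segment spans 260 to 296 CPM in 3D libraries against 606 to 624 CPM in 2D libraries.

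In 3D against 2D cells, 0 of 11 tested mitotic members rose and 7 fell at an adjusted p below 0.05 in edgeR's quasi-likelihood test, fitted to the 9 first-round libraries, and 4 did not pass. Among transport members 0 of 10 rose and 3 fell, and among the others 1 of 9 rose and 2 fell. Across all 12925 genes tested, 20.0% were called higher and 12.9% lower. The median log2 fold change was -1.67 for mitotic, -0.60 for transport and -1.07 for other members, against 0.03 for all genes. With the GC and length offset, 11 of 11 mitotic, 7 of 10 transport and 4 of 9 other members were called lower, and 1 other member higher. With that offset 16.0% of all genes were called higher and 16.6% lower. Without 3D replicates 1 and 2, 10 of 11 mitotic and 8 of 11 transport members were called lower and none of either higher, when 22.9% of all genes were called higher and 23.6% lower. That fit rests on 3D replicate 3 alone, whose spread is taken to be that of the other groups, and its mitotic median was -1.17.

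KIF4A, a chromokinesin that organises the central spindle, had 74.5, 70.0 and 62.4 CPM in 3D cells against 186, 185 and 177 CPM in 2D cells. All 3D libraries lay far below all 2D libraries, and close to each other. The log2 fold change was -1.45 ± 0.16 (SE, edgeR adjusted p = 0.00106), and -1.54 from 3D replicate 3 alone. KIF4B, its retrogene copy, had 5.34, 5.08 and 4.65 CPM in 3D cells against 15.9, 15.8 and 14.8 CPM in 2D cells (log2 fold change -1.67 ± 0.21, edgeR adjusted p = 0.00145; -1.73 from replicate 3 alone). KIF4B reads numbered between 6.14% and 9.57% of KIF4A reads in all 15 libraries, and 14.0% of the 50-base words of the KIF4B transcript also occur in KIF4A, so its value may hold KIF4A reads and is uncertain. In the counts of called members above and below, KIF4A and KIF4B may therefore not be separate cases.

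KIF20A, which brings the chromosomal passenger complex to the central spindle, had 32.8, 37.6 and 21.9 CPM in 3D cells against 65.1, 65.0 and 63.6 CPM in 2D cells. The groups did not overlap, and the lowest value came from 3D replicate 3 (log2 fold change -1.12 ± 0.21, edgeR adjusted p = 0.00587; -1.55 from replicate 3 alone). KIF18B, a plus-end motor that shortens astral microtubules, had 28.0, 35.5 and 25.3 CPM in 3D cells against 57.7, 55.6 and 57.9 CPM in 2D cells. Its log2 fold change was -0.99 ± 0.21 (edgeR adjusted p = 0.0082; -1.17 from replicate 3 alone), and again no libraries overlapped. KIF2C, a depolymerase that corrects kinetochore attachments, had 34.5, 40.7 and 28.1 CPM in 3D cells against 65.1, 58.6 and 59.9 CPM in 2D cells (log2 fold change -0.88 ± 0.20, edgeR adjusted p = 0.0108; -1.12 from replicate 3 alone). Leaving out 2D replicate 1 took the KIF2C adjusted p to 0.0555.

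KIF11, which slides spindle microtubules apart and is the target of several antimitotic inhibitors, had 16.4, 6.03 and 28.5 CPM in 3D cells against 65.6, 71.1 and 70.8 CPM in 2D cells. KIF15, which helps to keep the spindle bipolar beside KIF11, had 3.85, 1.77 and 9.42 CPM in 3D cells against 27.3, 26.3 and 23.2 CPM in 2D cells. Both were below 2D in every 3D library, but the 3D values spread widely and were lowest in replicate 2. The log2 fold change was -2.04 ± 0.48 for KIF11 (edgeR adjusted p = 0.0135) and -2.36 ± 0.53 for KIF15 (edgeR adjusted p = 0.0114). Without 3D replicate 1 the adjusted p was 0.0553 for KIF11 and 0.0511 for KIF15, and without replicate 3 the log2 fold changes were -2.70 and -3.27. From replicate 3 alone they were -1.27 for KIF11 and -1.44 for KIF15, and with the GC and length offset -1.07 and -1.67.

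The remaining mitotic members that were tested, KIF14, KIF18A, KIF20B and KIF22, were not called in 3D against 2D with all libraries and no offset. With the GC and length offset each was called lower. The log2 fold changes were then -1.53 for KIF14, -1.07 for KIF18A, -1.12 for KIF20B and -0.90 for KIF22 (edgeR adjusted p = 0.00817, 0.0154, 0.0496 and 0.0062). KIF14, a cytokinesis motor, had 2.36, 0.957 and 14.9 CPM in 3D cells against 28.3, 26.2 and 30.0 CPM in 2D cells, a log2 difference of -2.20 ± 0.81 (edgeR adjusted p = 0.0643). KIF20B, also a cytokinesis motor, had 1.57, 0.294 and 15.4 CPM in 3D cells against 22.1, 16.2 and 19.4 CPM in 2D cells. In both genes 3D replicates 1 and 2 were far lower than replicate 3, and both transcripts are poor in GC, at 38.3% for KIF14 and 34.2% for KIF20B. The log2 difference of KIF20B was -1.72 ± 0.99 (edgeR adjusted p = 0.199). KIF14 was at -0.91, KIF18A at -0.53 and KIF20B at -0.31 on the log2 scale from replicate 3 alone (edgeR adjusted p = 0.0104, 0.0459 and 0.235). KIF22, a chromokinesin of the polar ejection force, had 69.5, 97.0 and 31.8 CPM in 3D cells against 65.5, 66.7 and 61.7 CPM in 2D cells, so its 3D libraries lay on both sides of 2D. From replicate 3 alone, the log2 fold change of KIF22 was -1.02 (edgeR adjusted p = 0.00292).

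**Figure D3:**
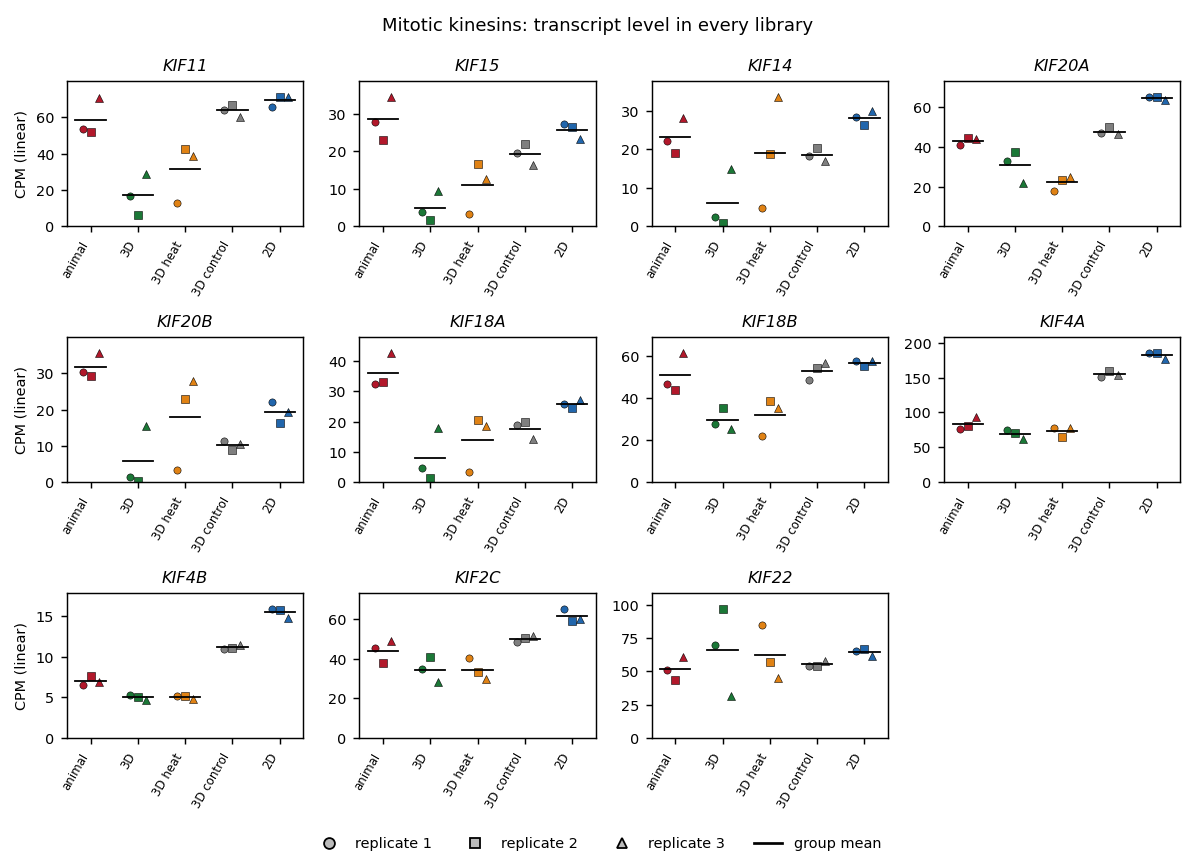
Level of 11 mitotic kinesins (y axis, CPM, linear from 0, scaled per gene) in every library, with groups from left to right animal, 3D, 3D heat, 3D control and 2D, points for replicates and a bar for the group mean. KIF4A, KIF4B and KIF20A are low in all 3D libraries, whereas KIF14, KIF18A and KIF20B are far lower in 3D replicates 1 and 2 than in replicate 3.

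Among the transport kinesins, KIF13A, which carries recycling endosomes, had 19.6, 13.5 and 34.3 CPM in 3D cells against 53.9, 54.99 and 50.6 CPM in 2D cells (log2 fold change -1.27 ± 0.34, edgeR adjusted p = 0.021). KIF3B, a subunit of the heterotrimeric kinesin of intraflagellar transport, had 51.2, 32.3 and 74.8 CPM in 3D cells against 104, 103 and 102 CPM in 2D cells (log2 fold change -0.996 ± 0.29, edgeR adjusted p = 0.0307). KIF1B, a carrier of mitochondria and vesicle precursors, had 34.0, 28.99 and 38.0 CPM in 3D cells against 49.5, 55.9 and 51.3 CPM in 2D cells (log2 fold change -0.67 ± 0.21, edgeR adjusted p = 0.0369). All 3 were below 2D in every 3D library. From replicate 3 alone the log2 fold changes were -0.63 for KIF13A, -0.46 for KIF3B and -0.45 for KIF1B, and KIF1B did not pass (edgeR adjusted p = 0.00717, 0.0075 and 0.0651). With the GC and length offset KIF1B was at -0.18 and was not called (edgeR adjusted p = 0.393). KIF13A and KIF3B were not called without 3D replicate 1 or without any 2D replicate (edgeR adjusted p 0.0603 to 0.0983), nor was KIF1B without those or 3D replicate 2 (0.0696 to 0.131).

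KIF5B, the ubiquitous conventional kinesin heavy chain, had 24.5, 9.20 and 93.6 CPM in 3D cells against 155, 160 and 158 CPM in 2D cells, and missed the threshold (log2 fold change -1.89 ± 0.68, edgeR adjusted p = 0.0612). From replicate 3 alone it was -0.74 (edgeR adjusted p = 0.0011). KIF1C had 398, 646 and 185 CPM in 3D cells against 352, 353 and 333 CPM in 2D cells. The 3D libraries thus straddled 2D, with the high values in the pair of libraries that stood apart. Its log2 fold change was 0.19 ± 0.36 with all libraries and -0.90 from replicate 3 alone (edgeR adjusted p = 0.000951), a change of sign. KIF3C, an alternative partner of KIF3A, had a log2 fold change of -0.25 ± 0.27 with all libraries and -0.93 from replicate 3 alone (edgeR adjusted p = 0.00141). Neither KIF3A nor KIF17 passed with all libraries and no offset, and from replicate 3 alone they were at -0.67 and -2.03. With the GC and length offset KIF5B, KIF3A, KIF17 and KIF3C were each called lower, at -1.22, -0.87, -1.38 and -0.56 (edgeR adjusted p = 0.00543, 0.012, 0.0252 and 0.0409). KIF13B had 22.2, 30.6 and 20.3 CPM in 3D cells against 36.4, 33.2 and 31.6 CPM in 2D cells. It was not called with all libraries and no offset, and was called lower with the offset at -0.61 (edgeR adjusted p = 0.0124).

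KIF12 was the one kinesin called higher in 3D. This motor of polarised epithelia, in which human variants cause cholestatic liver disease, had 11.2, 15.7 and 11.4 CPM in 3D cells against 2.78, 2.65 and 3.27 CPM in 2D cells. No library overlapped between the groups. Its log2 fold change was 2.09 ± 0.27 (4.27-fold higher, edgeR adjusted p = 0.00153), and 1.98 from 3D replicate 3 alone. With the GC and length offset it was 1.10 (edgeR adjusted p = 0.0145). In the opposite direction, KIF24, a centriolar depolymerase that restrains cilium formation, had 9.82, 12.8 and 9.85 CPM in 3D cells against 30.8, 27.8 and 28.8 CPM in 2D cells (log2 fold change -1.47 ± 0.21, edgeR adjusted p = 0.00216; -1.56 from replicate 3 alone). KIF2A, a depolymerase of spindle poles and growing neurites, had 13.8, 9.57 and 32.1 CPM in 3D cells against 43.3, 45.4 and 43.5 CPM in 2D cells (log2 fold change -1.27 ± 0.41, edgeR adjusted p = 0.043). The KIF2A call held only without 3D replicate 3, where the log2 fold change was -1.99, and was lost without any other 1 of the 6 libraries compared. From replicate 3 alone KIF2A was at -0.45 (edgeR adjusted p = 0.0176), and with the GC and length offset at -0.68. Calls that held without each of the 6 libraries in turn were those of KIF4A, KIF4B, KIF20A, KIF18B, KIF24 and KIF12. The number of kinesins called was 13 with all libraries, 7 without 3D replicate 1, 8 without 2D replicate 1 and 22 without 3D replicate 3. The share of all genes called without these libraries was 18.3%, 13.9% and 72.2%, so the count moved with that of all genes.

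KIF21A, which stabilises microtubule ends at the cell cortex, had 19.2, 5.96 and 53.8 CPM in 3D cells against 92.6, 93.9 and 93.5 CPM in 2D cells and missed the threshold (log2 fold change -1.83 ± 0.63, edgeR adjusted p = 0.0525). From replicate 3 alone it was -0.79. With the GC and length offset KIF21A was called lower at -1.25 (edgeR adjusted p = 0.0131). KIF7 had 9.98, 25.4 and 9.54 CPM in 3D cells against 15.9, 18.6 and 14.3 CPM in 2D cells, on both sides of them. It was not called with all libraries and no offset, and was called lower with the offset at -0.98 (edgeR adjusted p = 0.0148). KIF16B, a carrier of early endosomes, had 40.0, 20.4 and 67.5 CPM in 3D cells against 54.0, 58.1 and 53.1 CPM in 2D cells, on both sides of them (log2 difference 0.30 from replicate 3 alone, edgeR adjusted p = 0.0559). KIF27, a relative of KIF7, had 0.472, 0.221 and 3.61 CPM in 3D cells against 3.85, 3.40 and 3.596 CPM in 2D cells, with only replicate 3 within the 2D range. KIF21B and KIF26B stayed below 3 CPM in every library, and neither was called in any comparison.

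Markers of other cell types differed between 3D and 2D as well. Macrophage and leukocyte markers, 9 in all, summed to 387 to 501 CPM in 3D cells against 103 to 110 CPM in 2D cells. Of the 6 tested, 3 were called higher and 0 lower, also 3 higher and 0 lower of 7 from replicate 3 alone, with CSF1R at 0 in 2D and none at 0 in 3D. Fibroblast and pericyte markers summed to 16.3 to 112 CPM in 3D cells against 64.7 to 69.2 CPM in 2D cells (0 of 6 tested called higher and 2 lower, none of 8 at 0). Endothelial markers summed to 68.0 to 129 CPM in 3D cells against 47.2 to 59.4 CPM in 2D cells (1 of 3 tested called higher and 0 lower, none of 5 at 0). From replicate 3 alone the median log2 fold changes were -0.56 for fibroblast and pericyte and -0.17 for endothelial markers. With all libraries they were -0.48 and -0.57. The endothelial call was not kept from replicate 3 alone. Their part in the kinesin values was not tested.

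**Figure D4:**
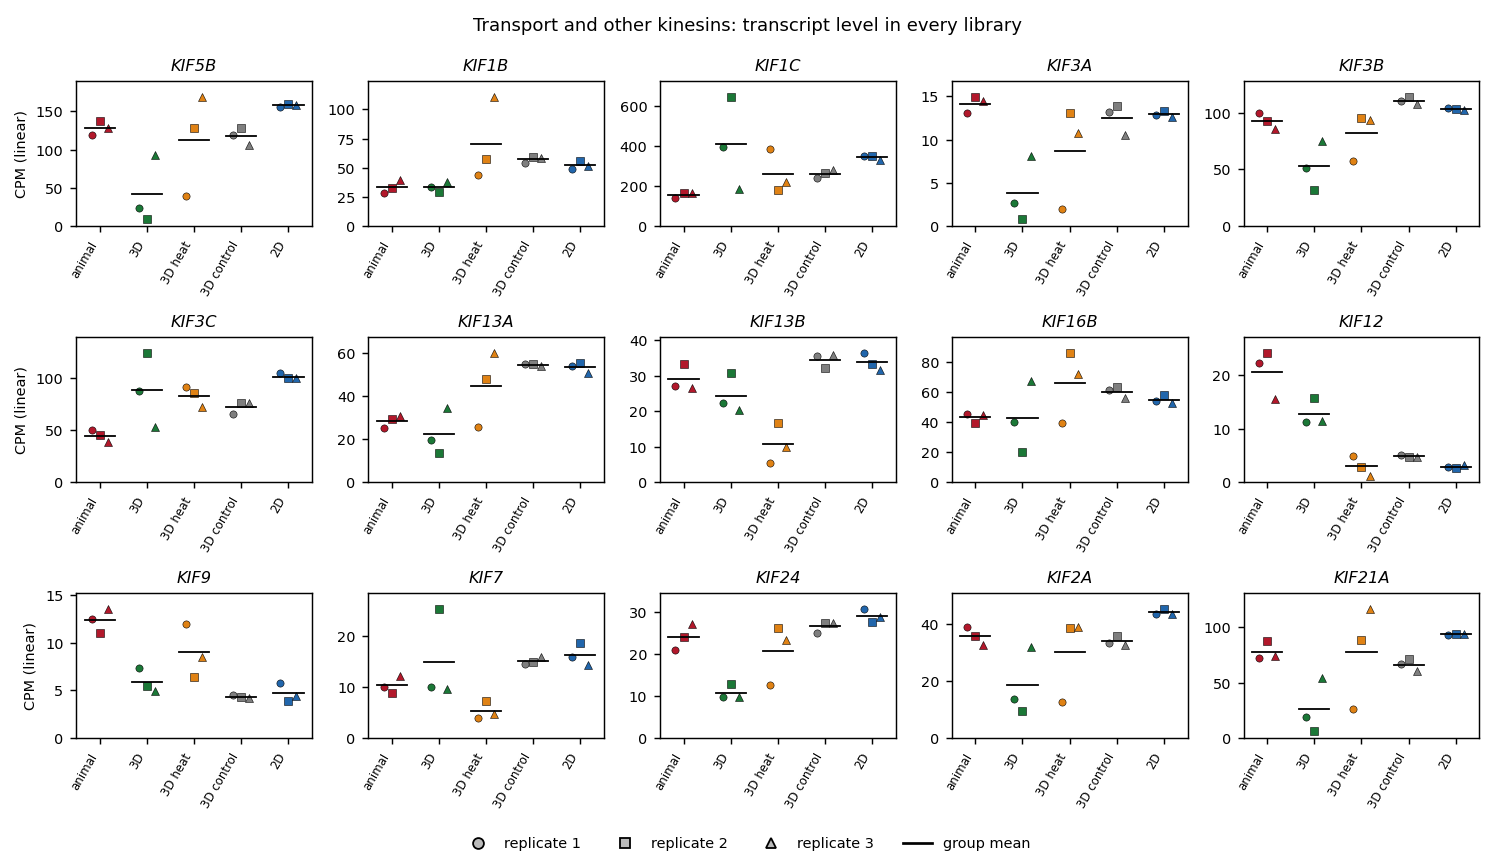
Level of 9 transport and 6 other kinesins (y axis, CPM, linear from 0, scaled per gene) in every library, with groups from left to right animal, 3D, 3D heat, 3D control and 2D, points for replicates and a bar for the group mean. KIF12 and KIF9 have their highest group mean in the animal model, and KIF1C and KIF3C are higher in 3D replicates 1 and 2 than in replicate 3.

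Animal model libraries were also set against 2D cells. Of the mitotic members 0 of 11 rose and 2 fell, of the transport members 0 of 10 rose and 2 fell, and of the others 2 of 9 rose and 0 fell. Over all genes 7.78% were called higher and 4.25% lower. The medians were -0.27, -0.47 and -0.23 for mitotic, transport and other members, against 0.03 for all genes. This comparison and that of 3D with 2D share the 2D libraries.

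KIF4A had 76.4, 80.2 and 93.4 CPM in the animal model against 186, 185 and 177 CPM in 2D cells, with no overlap (log2 fold change -1.11 ± 0.16, edgeR adjusted p = 0.00307). KIF4B had 6.52, 7.68 and 6.94 CPM in the animal model against 15.9, 15.8 and 14.8 CPM in 2D cells (log2 fold change -1.12 ± 0.21, edgeR adjusted p = 0.00854). Of the 9 other tested mitotic members none was called with all libraries and no offset. KIF20A had 41.1, 44.3 and 44.0 CPM in the animal model against 65.1, 65.0 and 63.6 CPM in 2D cells (log2 difference -0.56 ± 0.21, edgeR adjusted p = 0.116). KIF2C had 45.2, 37.8 and 49.0 CPM in the animal model against 65.1, 58.6 and 59.9 CPM in 2D cells (log2 difference -0.46 ± 0.19, edgeR adjusted p = 0.165). With the GC and length offset KIF20A was at -0.64 and KIF2C at -0.55, and both were called lower (edgeR adjusted p = 0.031 and 0.0222). All animal libraries lay below all 2D libraries in both genes. They lay above them in KIF20B, at 30.4, 29.3 and 35.7 CPM in the animal model against 22.1, 16.2 and 19.4 CPM in 2D cells, and in KIF18A, at 32.3, 33.0 and 42.8 CPM against 25.8, 24.7 and 27.3 CPM. The log2 differences of this pair were 0.74 ± 0.95 and 0.49 ± 0.71 (edgeR adjusted p = 0.691 and 0.729). These SEs rest on a spread shared with the 3D libraries, where the SDs of KIF20B and KIF18A were 8.39 and 8.78 CPM. In the animal model the SDs were 3.42 and 5.86 CPM, and in 2D cells 2.94 and 1.29 CPM. KIF20B and KIF18A were each called higher under 1 of the alternative settings of the fit. KIF11 had 53.2, 51.7 and 70.4 CPM in the animal model against 65.6, 71.1 and 70.8 CPM in 2D cells, and KIF15 had 27.9, 23.1 and 34.5 CPM against 27.3, 26.3 and 23.2 CPM. For both, the groups overlapped. The log2 fold change was -0.23 ± 0.46 for KIF11 and 0.17 ± 0.50 for KIF15 (edgeR adjusted p = 0.819 and 0.88).

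KIF12 stood at 22.4, 24.2 and 15.6 CPM in the animal model against 2.78, 2.65 and 3.27 CPM in 2D cells. All animal libraries were well above all 2D libraries, and the log2 fold change was 2.85 ± 0.27 (7.21-fold higher, edgeR adjusted p = 0.000551). KIF9, a ciliary motor, had 12.4, 11.0 and 13.6 CPM in the animal model against 5.77, 3.87 and 4.40 CPM in 2D cells (log2 fold change 1.41 ± 0.26, edgeR adjusted p = 0.00883). Of the KIF9 exons, 16.4% overlap transcripts on the opposite strand, KIF9-AS1 and KLHL18, from which unstranded reads cannot be told apart. KIF17, a homodimeric motor of dendrites and cilia, had 0.419, 1.01 and 0.718 CPM in the animal model against 3.63, 2.97 and 3.27 CPM in 2D cells (log2 fold change -2.18 ± 0.53, edgeR adjusted p = 0.0296). KIF3C had 49.8, 45.5 and 38.8 CPM in the animal model against 104, 99.7 and 99.5 CPM in 2D cells (log2 fold change -1.16 ± 0.27, edgeR adjusted p = 0.0255). KIF1C had 141, 167 and 168 CPM in the animal model against 352, 353 and 333 CPM in 2D cells. KIF13A had 25.1, 29.2 and 30.7 CPM against 53.9, 54.99 and 50.6 CPM. Neither gene overlapped between groups or was called with all libraries and no offset. With the GC and length offset KIF1C was at -1.08, KIF13A at -0.87, KIF1B at -0.61 and KIF2A at -0.50, all called lower (edgeR adjusted p 0.005 to 0.0228). In that fit 12.6% of all genes were called higher and 19.1% lower.

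The calls of KIF12 and KIF4A held without each of the 6 libraries in turn. That of KIF3C was lost without any of them (edgeR adjusted p 0.0739 to 0.0983), and that of KIF17 without any but animal replicate 2 (0.0856 to 0.120). KIF4B was lost without 2D replicate 1 or 2 (0.0566 and 0.055), and KIF9 without 2D replicate 2 or 3 (0.0646 and 0.0624). Without 2D replicates 1, 2 and 3 in turn, 3, 2 and 3 members were called in place of 6, when 4.94%, 5.02% and 5.24% of all genes were called. Markers of other cell types also differed between these groups. The summed level of 8 fibroblast and pericyte markers was 162 to 456 CPM in the animal model against 64.7 to 69.2 CPM in 2D cells, with 5 of 6 tested markers called higher and THY1 at 0 in the animal model. Summed macrophage and leukocyte markers were at 163 to 219 CPM in the animal model against 103 to 110 CPM in 2D cells (4 of 6 tested called higher, with TYROBP at 0 in the animal model and CSF1R at 0 in 2D). Endothelial markers summed to 43.4 to 65.7 CPM in the animal model against 47.2 to 59.4 CPM in 2D cells (2 of 3 tested called higher, with none of the 5 rows at 0). The part of such cells in the kinesin values was not tested.

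Set against 3D cells, the animal model had 4 of 11 tested mitotic kinesins that rose and 0 that fell, and 7 did not pass. Of the transport members 2 of 10 rose and 3 fell, and of the others 3 of 9 rose and 0 fell, when 18.6% of all genes were called higher and 22.9% lower. The transport share lies near that of all genes. The medians were 0.85, 0.19 and 0.99 for mitotic, transport and other members, against 0.10 for all genes. Without 3D replicates 1 and 2, all 11 tested mitotic members were called higher, as were 4 of 11 transport and 4 of 10 other members, with 1 transport member lower. In that fit 24.6% of all genes were called higher and 22.5% lower, and the mitotic median was 0.97. Without 3D replicate 3, 8 of the 11 mitotic members were called higher and KIF22 lower (log2 fold change -0.60, edgeR adjusted p = 0.0122). That fit keeps only the 3D libraries that stood apart, and 42.6% of all genes were called higher and 34.5% lower in it. KIF22 was at 0.70 with replicate 3 as the only 3D library.

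Of the mitotic motors, KIF15 had 27.9, 23.1 and 34.5 CPM in the animal model against 3.85, 1.77 and 9.42 CPM in 3D cells (log2 fold change 2.53 ± 0.53, edgeR adjusted p = 0.00683; 1.59 with replicate 3 as the only 3D library). KIF11 had 53.2, 51.7 and 70.4 CPM in the animal model against 16.4, 6.03 and 28.5 CPM in 3D cells (log2 fold change 1.81 ± 0.48, edgeR adjusted p = 0.0166; 1.03 with replicate 3 alone). KIF18A, which damps chromosome oscillations at metaphase, had 32.3, 33.0 and 42.8 CPM in the animal model against 4.64, 1.25 and 17.9 CPM in 3D cells (log2 fold change 2.20 ± 0.74, edgeR adjusted p = 0.0418; 1.0 with replicate 3 alone). For all 3 genes the lowest animal library exceeded the highest 3D library. KIF18B had 46.8, 44.2 and 61.7 CPM in the animal model against 28.0, 35.5 and 25.3 CPM in 3D cells (log2 fold change 0.85 ± 0.20, edgeR adjusted p = 0.0118; 1.0 with replicate 3 alone). With the GC and length offset, the log2 fold changes were 0.57 for KIF11, 1.66 for KIF15 and 1.21 for KIF18A, and all 3 passed (edgeR adjusted p = 0.0425, 0.000618 and 0.00705).

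KIF4A, by contrast with its difference from 2D, had 76.4, 80.2 and 93.4 CPM in the animal model against 74.5, 70.0 and 62.4 CPM in 3D cells, and was not called (log2 fold change 0.33 ± 0.16, edgeR adjusted p = 0.12). With replicate 3 as the only 3D library it passed at 0.41 (edgeR adjusted p = 0.03). Its libraries in both models lay below all 3D control and 2D libraries. Among the others, KIF24 had 20.9, 24.2 and 27.2 CPM in the animal model against 9.82, 12.8 and 9.85 CPM in 3D cells (log2 fold change 1.21 ± 0.21, edgeR adjusted p = 0.0029). KIF9 was higher by 1.13 ± 0.26 and KIF12 by 0.75 ± 0.25 on the log2 scale (edgeR adjusted p = 0.00988 and 0.0405). With replicate 3 as the only 3D library, KIF24 was at 1.28, KIF9 at 1.33 and KIF12 at 0.85, and all 3 passed. The GC and length offset took KIF12 to 1.85 (edgeR adjusted p = 0.000723). Among the transport members, KIF3A, the partner of KIF3B, had 13.0, 14.9 and 14.5 CPM in the animal model against 2.75, 0.809 and 8.08 CPM in 3D cells (log2 fold change 1.88 ± 0.64, edgeR adjusted p = 0.0426). KIF3B was higher by 0.85 ± 0.29 on the log2 scale (edgeR adjusted p = 0.0434). With replicate 3 as the only 3D library KIF3A was at 0.80 and KIF3B at 0.30, both past the threshold (edgeR adjusted p = 0.00463 and 0.0402), and KIF3A was at 0.76 with the GC and length offset. Lower in the animal model were KIF1C (log2 fold change -1.29 ± 0.36), KIF17 (-1.64 ± 0.54) and KIF3C (-0.91 ± 0.27), with edgeR adjusted p of 0.0211, 0.0371 and 0.027. With replicate 3 as the only 3D library these values were -0.23 for KIF1C, -0.17 for KIF17 and -0.25 for KIF3C, and none of the 3 was called. With the GC and length offset KIF17 was at -0.63 and was not called (edgeR adjusted p = 0.268).

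Calls of KIF15, KIF18B, KIF24 and KIF9 in the animal model against 3D held without each of the 6 libraries in turn. The number called was 12 with all libraries, 5 without any single animal replicate, 4 without 3D replicate 1 and 23 without 3D replicate 3. All genes were called at 26.6%, 27.6% and 26.6% without animal replicates 1, 2 and 3, at 25.5% without 3D replicate 1 and at 77.0% without 3D replicate 3. KIF11 was lost without animal replicate 3 or 3D replicate 1 (edgeR adjusted p = 0.0546 and 0.0629), and KIF18A and KIF3A without any animal replicate or 3D replicate 1 (0.0813 to 0.138). Without 3D replicate 3 the log2 fold changes were 2.47 for KIF11, 3.43 for KIF15, 3.71 for KIF18A and 3.08 for KIF3A. KIF1C lost its call without any animal replicate or 3D replicate 1 (0.0546 to 0.0746). KIF12 lost its call without animal replicate 1 or 2 or 3D replicate 1 (0.115 to 0.126). KIF3B, KIF3C and KIF17 lost theirs without any library but 3D replicate 3 (0.0516 to 0.125).

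The same marker lists differed between the animal model and 3D. Fibroblast and pericyte markers summed to 162 to 456 CPM in the animal model against 16.3 to 112 CPM in 3D cells (5 of 6 tested called higher and 0 lower, with THY1 at 0 in the animal model). Macrophage and leukocyte markers summed to 163 to 219 CPM in the animal model against 387 to 501 CPM in 3D cells (3 of 6 called higher and 1 lower, with TYROBP at 0 in the animal model). Endothelial markers summed to 43.4 to 65.7 CPM in the animal model against 68.0 to 129 CPM in 3D cells (2 of 3 called higher and 1 lower, none of 5 at 0). With replicate 3 as the only 3D library, the median log2 fold changes of the lists in this order were 6.18, 2.72 and 3.14. With all libraries they were 5.82, 1.44 and 3.43. The endothelial marker called lower was not kept with that library alone. Their part was not tested here either.

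**Figure D5:**
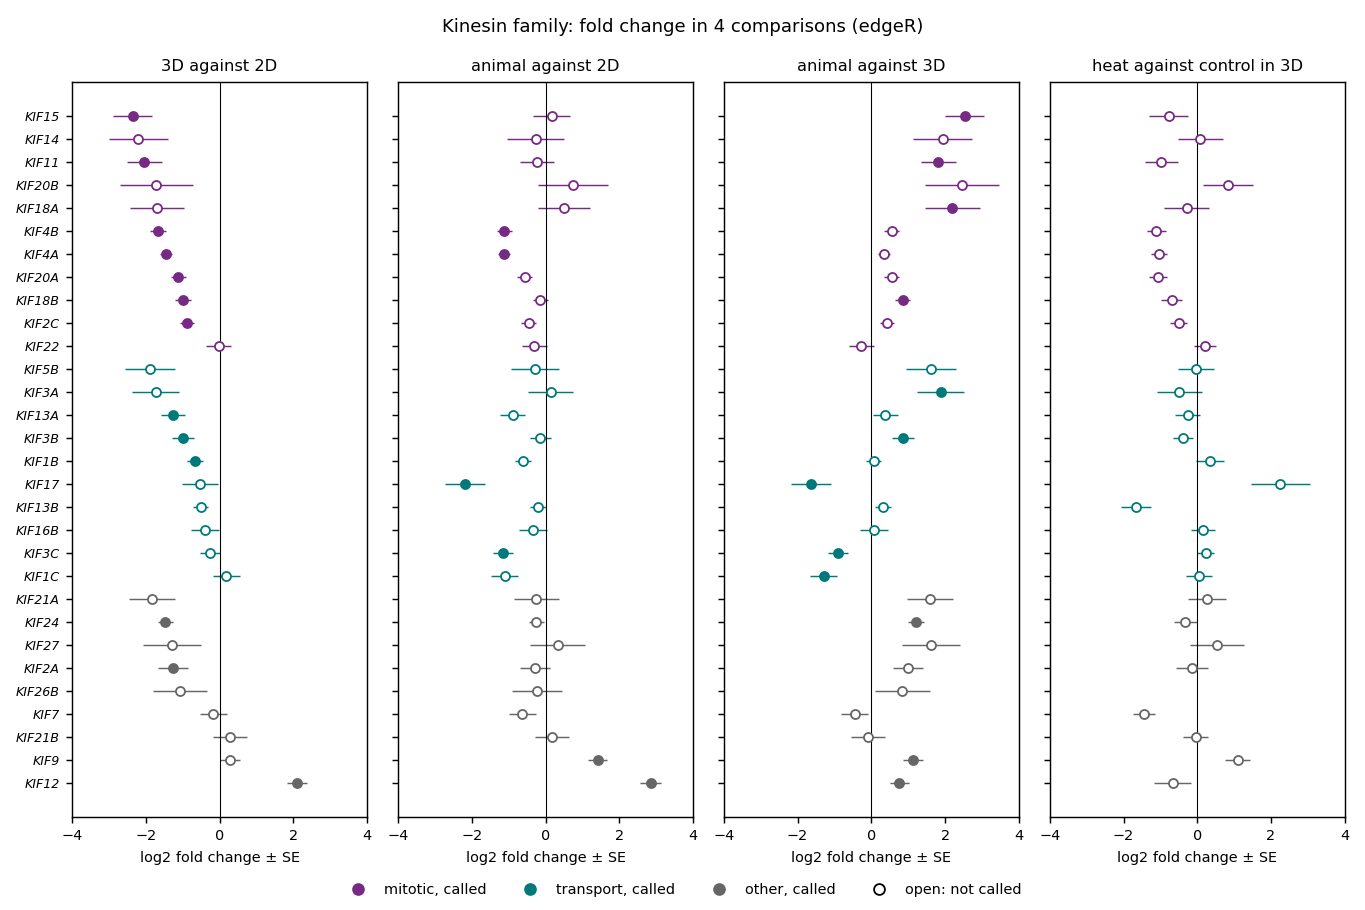
Log2 fold change ± SE (x axis) of each tested kinesin (y axis) from edgeR in 4 panels (3D against 2D cells, the animal model against 2D and then 3D cells, and heat-treated against control cells), with filled points called at an adjusted p below 0.05 and open points not called. Of 30 members 12 fell and 1 rose in 3D against 2D, 4 fell and 2 rose in animal against 2D, and none of 29 was called with heat.

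With heat in the 3D model, no kinesin was called by edgeR. Over all 12627 genes tested, 0.00792% were called higher and 0.0158% lower, 1 gene and 2 genes. At an unadjusted p below 0.05, 2 of 29 kinesins were higher and 6 lower, against 11.8% and 8.97% of all genes. DESeq2 called 2 higher (KIF17 and KIF9) and 5 lower (KIF20A, KIF4A, KIF4B, KIF13B and KIF7), and 12.2% of all genes in either direction. The medians were -0.70 for mitotic, 0.01 for transport and -0.09 for other members, against 0.10 for all genes. Without heat replicate 1, the library with the GC trend, edgeR called 13 kinesins, when 14.0% of all genes were called higher and 14.8% lower. Of the mitotic members 1 of 11 was then higher and 6 lower, of the transport members 1 of 10 higher and 1 lower, and of the others 3 of 8 higher and 1 lower. Without heat replicate 2, 5 kinesins were called, and 8.13% of all genes.

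KIF4A had 77.5, 64.2 and 77.4 CPM in heat-treated cells against 151, 159 and 154 CPM in 3D controls, with no overlap and a narrow spread in both groups. Its log2 difference was -1.04 ± 0.23 (edgeR adjusted p = 0.103), and -1.09 without heat replicate 1 (edgeR adjusted p = 0.00662). KIF20A had 17.7, 23.5 and 25.1 CPM in heat-treated cells against 47.0, 49.8 and 46.4 CPM in controls, also without overlap. The log2 difference of KIF20A was -1.07 ± 0.24 (edgeR adjusted p = 0.106), and -0.94 without heat replicate 1 (edgeR adjusted p = 0.00666). KIF11 had 12.6, 42.7 and 38.9 CPM in heat-treated cells against 63.9, 66.8 and 60.3 CPM in controls, each heated library below each control. Its log2 difference was -0.98 ± 0.45 (edgeR adjusted p = 0.264), and -0.61 without heat replicate 1 (edgeR adjusted p = 0.0164).

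KIF20B, a relative of KIF20A, had 3.37, 22.9 and 27.8 CPM in heat-treated cells against 11.5, 8.98 and 10.7 CPM in controls, low in heat replicate 1 and above all controls in the other 2 (log2 difference 0.84 ± 0.67, edgeR adjusted p = 0.494). Without heat replicate 1 it was called higher, with a log2 fold change of 1.32 (edgeR adjusted p = 0.0085). There were 0.190, 0.973 and 1.11 KIF20B reads per KIF20A read in the heat-treated libraries against 0.244, 0.180 and 0.230 in controls. In the other groups this ratio was 0.661 to 0.811 in the animal model, 0.048, 0.0078 and 0.704 in 3D, and 0.250 to 0.340 in 2D.

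KIF7, a regulator of Hedgehog signalling at the tip of the cilium, had 4.02, 7.30 and 4.80 CPM in heat-treated cells against 14.5, 14.9 and 16.0 CPM in controls. KIF13B, a carrier of membrane proteins, had 5.33, 16.6 and 9.89 CPM in heat-treated cells against 35.4, 32.05 and 35.8 CPM in controls. In both genes the heated libraries were all well below the controls. The log2 difference was -1.45 ± 0.30 for KIF7 and -1.66 ± 0.41 for KIF13B (edgeR adjusted p = 0.0978 and 0.12). Without heat replicate 1 these were -1.29 and -1.35, and both passed (edgeR adjusted p = 0.0138 and 0.0157). KIF9 had 12.0, 6.43 and 8.55 CPM in heat-treated cells against 4.47, 4.29 and 4.22 CPM in controls (log2 difference 1.09 ± 0.33, edgeR adjusted p = 0.145), and passed without heat replicate 1 at 0.82 (edgeR adjusted p = 0.0331).

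Some kinesins of low level are given here because of their values in heat-treated libraries, and were chosen after those values were seen. KIF1A, an axonal carrier of synaptic vesicle precursors, had 18, 4 and 29 reads in heat-treated libraries against 1, 0 and 0 reads in controls. KIF26A, an atypical kinesin without motor activity, had 16, 2 and 9 reads against 0, 1 and 1. KIF5A, the neuronal conventional kinesin, had 1, 5 and 24 reads with heat against 3, 3 and 3 in controls, so heat replicate 1 lay below the controls. KIF25 had 9, 15 and 3 reads with heat against 2, 1 and 3 in controls. KIF17 had 26.7, 2.46 and 11.1 CPM in heat-treated cells against 2.06, 3.03 and 3.57 CPM in controls, high in replicates 1 and 3 and within the controls in replicate 2 (log2 difference 2.25 ± 0.80, edgeR adjusted p = 0.192; 1.26 without heat replicate 1). The summed level of 6 neuronal markers was 129 to 486 CPM with heat against 224 to 242 CPM in controls, with SNAP25 and STMN2 at 0 with heat and STMN2 at 0 in controls, and 0 of 4 tested markers were called. Without heat replicate 1, 0 of the 4 were called higher and 2 lower. The part of these markers in the kinesin values was not tested. The remaining untested members, KIF2B, KIF6, KIF19 and KIF25, had at most 15 reads in any library.

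The 3D controls of the later round were set against 2D cells in a fit of all 15 libraries, where the round and the group cannot be told apart. No kinesin of 30 was called by edgeR, when 0.930% of all 13227 genes were called higher and 0.00756% lower. At an unadjusted p below 0.05, 0 kinesins were higher and 1 lower, against 7.73% and 2.65% of all genes, and DESeq2 called 1 (KIF4B) and 3.74% of all genes. The medians were -0.41 for mitotic, -0.01 for transport and -0.13 for other members, against 0.00 for all genes. Fitted with only these 6 libraries, 3 members were called higher and 14 lower, and the lower ones included 9 mitotic members. In that fit 63.1% of all genes were called, 31.4% higher and 31.7% lower.

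KIF4A had 151, 159 and 154 CPM in 3D controls against 186, 185 and 177 CPM in 2D cells, a log2 difference of -0.25 ± 0.17 (edgeR adjusted p = 0.748). For KIF11 the values were 63.9, 66.8 and 60.3 CPM in 3D controls against 65.6, 71.1 and 70.8 CPM in 2D cells, with overlapping ranges. KIF12 had 5.16, 4.64 and 4.74 CPM in 3D controls against 2.78, 2.65 and 3.27 CPM in 2D cells (log2 difference 0.73 ± 0.38, edgeR adjusted p = 0.572). The first-round 3D libraries were at 62.4 to 74.5 CPM for KIF4A and 11.2 to 15.7 CPM for KIF12, outside the range of the later 3D controls for both genes. The labels do not say how the 3D model and the 3D treatment control differ, apart from the round.

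Proteins that work with the mitotic kinesins were followed in a list of 15, all of which were tested. In 3D against 2D, 1 of the 15 was called higher and 9 lower, with a median log2 fold change of -1.04, when 20.0% of all genes were called higher and 12.9% lower. From 3D replicate 3 alone the median was -1.30. RACGAP1, the partner of KIF23 in centralspindlin, averaged 66.4 ± 5.24 CPM in 3D cells and 154 ± 5.27 CPM in 2D cells (SD, n = 3 each; log2 fold change -1.26, edgeR adjusted p = 0.00128). PRC1, which recruits KIF4A to the central spindle, averaged 36.6 ± 0.81 CPM in 3D cells and 89.0 ± 0.71 CPM in 2D cells (log2 fold change -1.32, edgeR adjusted p = 0.0019). Both groups were tight, and these differences exceed their spread many times over. In the animal model against 2D, 0 of 15 rose and 3 fell: AURKA by 1.01, FAM83D by 1.24 and PLK1 by 1.41 on the log2 scale (edgeR adjusted p = 0.00818, 0.00979 and 0.0488). Of all genes 7.78% were called higher and 4.25% lower there. In the animal model against 3D, 5 rose and 1, PLK1, fell, when 18.6% of all genes were called higher and 22.9% lower. With replicate 3 as the only 3D library the median log2 fold change was 0.64, against 0.11 with all libraries, and PLK1 did not keep its call. With heat and in 3D controls against 2D, 0 of 15 were called by edgeR. Without heat replicate 1, 1 was higher and 6 were lower, when 14.0% of all genes were called higher and 14.8% lower.

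Of 14 tested adaptors, genes that link transport kinesins to cargo, 2 rose and 3 fell in 3D against 2D, 0 were called in the animal model against 2D, and 0 rose and 4 fell in the animal model against 3D. For dynein and dynactin, the opposing motor, 3 of 16 rose and 4 fell in 3D against 2D, 0 rose and 1 fell in the animal model against 2D, and 1 rose and 4 fell in the animal model against 3D. From 3D replicate 3 alone, the median log2 fold change against 2D was 0.01 for adaptors and -0.10 for dynein and dynactin genes. In the animal model against that library the medians were -0.18 and -0.03. With heat, 0 genes of either list were called by edgeR, and without heat replicate 1 the counts were 1 higher and 1 lower of 14 adaptors, and 1 higher and 2 lower of 16 dynein and dynactin genes. With all libraries, 20.0% of all genes were called higher and 12.9% lower in 3D against 2D, and 18.6% higher and 22.9% lower in the animal model against 3D. The shares were 7.78% and 4.25% in the animal model against 2D, and 14.0% and 14.8% with heat without heat replicate 1.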

How the data were processed

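RNA of 15 MHCC-97H libraries was sequenced as single-end reads of 50 bases, per the labels' protocols, with no mention of strand marking. The submitters' processing notes name HISAT2 and hg19, and the counting program, annotation and removal of host reads are not given in the sources used here. The deposited values are raw counts for each gene symbol in each library, with totals of 12605539 to 18634295. No molecular identifiers are mentioned, so PCR copies cannot be told from separate molecules.

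Fits used edgeR 4.0.16 under R 4.3.3, with filterByExpr by group, TMM scaling, a robust quasi-likelihood fit and Benjamini-Hochberg adjustment over all genes tested, called below 0.05. The 9 first-round libraries (animal, 3D, 2D) and the 6 later ones (3D heat, 3D control) were fitted apart, and all 15 together for 3D controls against 2D. Fold changes are log2, the group named before "against" over the group named after it. The SE of a fold change was derived as its absolute log2 value divided by the square root of the test's F statistic. Alternatives were DESeq2 1.42.0, other scalings and filters, a replicate block, an offset for transcript GC content and length (natural splines of 5 degrees of freedom, GENCODE annotation, 99.5% of genes matched), and leaving out libraries. Counts and medians of the other gene lists without libraries were added after seeing the data.

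Members, roles, gene lists and alternatives were chosen with earlier results of these data known. All members are accounted for; those at 10 CPM or more in the mean of a group, or called, could be given in full, and of the other lists the 4 genes of smallest adjusted p. Some further members with few reads were named after their values were seen. No 2 libraries held identical columns.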

Additional observations from a re-analysis of the deposited data

How the results depend on the processing

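With all libraries, 13 kinesins were called in 3D against 2D, 6 in animal against 2D, 12 in animal against 3D, and 0 both with heat and in 3D controls against 2D. With the GC and length offset the counts were 23 in 3D against 2D, 12 in animal against 2D and 5 with heat, and 32.6%, 31.7% and 11.3% of all genes were called. Without 3D replicates 1 and 2 they were 23 in 3D against 2D and 20 in animal against 3D, with 46.4% and 47.1% of all genes. Fitting only the 2 groups compared gave 18 in animal against 2D, 2 in animal against 3D and 17 in 3D controls against 2D, when 57.4%, 21.6% and 63.1% of all genes were called. DESeq2 gave 7 with heat and 1 in 3D controls against 2D (12.2% and 3.74% of all genes), and all 15 libraries in one fit gave 6 with heat (11.4%). Leaving out each library in turn gave 7 to 22 in 3D against 2D, 2 to 5 in animal against 2D, 4 to 23 in animal against 3D, 0 to 13 with heat, and 0 in 3D controls against 2D, with 13.6% to 72.2%, 4.94% to 8.84%, 25.5% to 77.0%, 0.00% to 28.8% and 0.0295% to 0.147% of all genes in the same order. In animal against 3D, the members whose calls changed with the GC and length offset are named above, and 42.1% of all genes were called. The cause of these shifts was not tested.

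The replicate numbers are shared by the groups but did not pair the libraries: same-numbered libraries correlated at -0.23 to 0.14 in their deviations from group means. With the replicate block the counts were 14, 5, 11, 0 and 0 in the order above. The shares of all genes called were 25.3%, 7.98%, 35.9%, 0.238% and 0.476%. Where a value passed the threshold, signs turned for KIF1C in 3D against 2D (-0.90 without 3D replicates 1 and 2), and in animal against 3D for KIF1B (-0.43 with the GC and length offset), KIF22 (0.56 with that offset and 0.70 without 3D replicates 1 and 2) and KIF16B (-0.65 without 3D replicates 1 and 2). Below the threshold, signs also turned for 6 members in 3D against 2D, 4 in animal against 2D, 8 in animal against 3D, 12 with heat and 4 in 3D controls against 2D. Upper-quartile scaling took the median log2 fold change of all genes with heat to -0.02, against 0.10 with TMM, and that in animal against 3D to 0.21, against 0.10. Median-ratio scaling took the last to 0.00.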
